A study of Mus musculus with 20 samples.

Results

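Signals of the vascular endothelial growth factor (VEGF) and angiopoietin families were examined in mouse pancreatic islets and islet grafts by the transcripts of 10 genes, 6 ligands and 4 receptors, out of 19938 genes named on the array. Each gene was taken from a fixed list and was represented by its probe set with 1 gene symbol and the highest mean over 20 arrays. Every one of the 10 had exactly 1 such probe set, so a second measurement on the same array was not at hand. All animals were C57bl6/J mice. Islet grafts of male donors came from female hosts on day 12.5 of pregnancy (P12.5, n = 3) or from non-pregnant female hosts (NP, n = 3), and grafts of female donors came from P12.5 hosts (n = 3) and NP hosts (n = 3). Islets left in the pancreas until isolation came from P12.5 females (n = 4) and NP females (n = 4). The study made its adult graft hosts diabetic with streptozotocin, placed the islets under the kidney capsule and mated hosts whose glucose had been restored. No such treatment is described for the mice that supplied the islet arrays, and those arrays are marked in the labels as analysed again. Transplantation, streptozotocin and array batch therefore cannot be told apart wherever grafts are set against islets. The labels speak of biological replicates but identify no animals, and p-values therefore reflect only how these samples varied.

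VEGF-A is made by islet endocrine cells and acts on the capillaries that run through the islet, mainly through the receptor encoded by Kdr. The receptor encoded by Flt1 binds VEGF-A, VEGF-B and placental growth factor, and largely limits how much VEGF-A reaches the Kdr receptor. Angiopoietin 1 activates the endothelial receptor encoded by Tek, and angiopoietin 2 can oppose it. Islets lose their blood supply at isolation, and grafts are vascularised again by endothelial cells of host and donor origin.

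Levels are log2 expression values rounded to 1 decimal, so a difference of 1 means a doubling. Array medians lay between 5.9 and 6.0, the lower quartile of an array was 4.7 to 4.9, and Pearson's r between replicates across probe sets was 0.971 to 0.989. Changes are mean log2 differences ± SE, and adjusted p-values are from limma with Benjamini-Hochberg adjustment over all 35511 probe sets. The call rule required an adjusted p under 0.05 together with a change of 1.5-fold or more. The label of islet tissue was checked with 12 endocrine genes, whose mean level was 11.0 to 11.7 in the 12 grafts and 11.4 to 11.8 in the 8 islet arrays. Genes of neighbouring tissue were higher in every graft. The mean of 12 kidney tubule genes was 5.83 to 8.92 in the grafts and 5.21 to 5.33 in the islets. The mean of 6 fibroblast genes was 9.03 to 11.1 in the grafts and 6.32 to 6.95 in the islets, and that of 9 immune genes was 6.96 to 8.07 in the grafts and 5.58 to 5.89 in the islets. Acinar genes were high in the islet arrays instead (8.48 to 10.4, against 5.08 to 5.37 in the grafts).

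The largest differences among the 10 genes lay between grafts and islets, and they concerned the receptor Flt1. In NP mice, female grafts differed from islets in 3 of the 10 genes, with Angpt1 higher and Flt1 and Kdr lower, where 11.0% of all probe sets were called. In P12.5 mice 2 of the 10 differed, with Vegfc higher and Flt1 lower, against 4.05% of all probe sets. Pregnancy itself changed few of them. In female grafts Vegfb rose and was the only one of the 10 called, against 1.70% of all probe sets. In male grafts 0 of the 10 were called by limma, against 0.932% of all probe sets. An unadjusted p under 0.05 was found for 4 of the 10, and for 6926 of all 35511 probe sets. When both donor sexes were combined Pgf fell and was the only one called, against 3.96% of all probe sets. In islets left in the pancreas 0 of the 10 were called, against 0.724% of all probe sets. An unadjusted p under 0.05 was found there for 0 of the 10, and for 4208 of all 35511 probe sets.

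**Figure D1:**
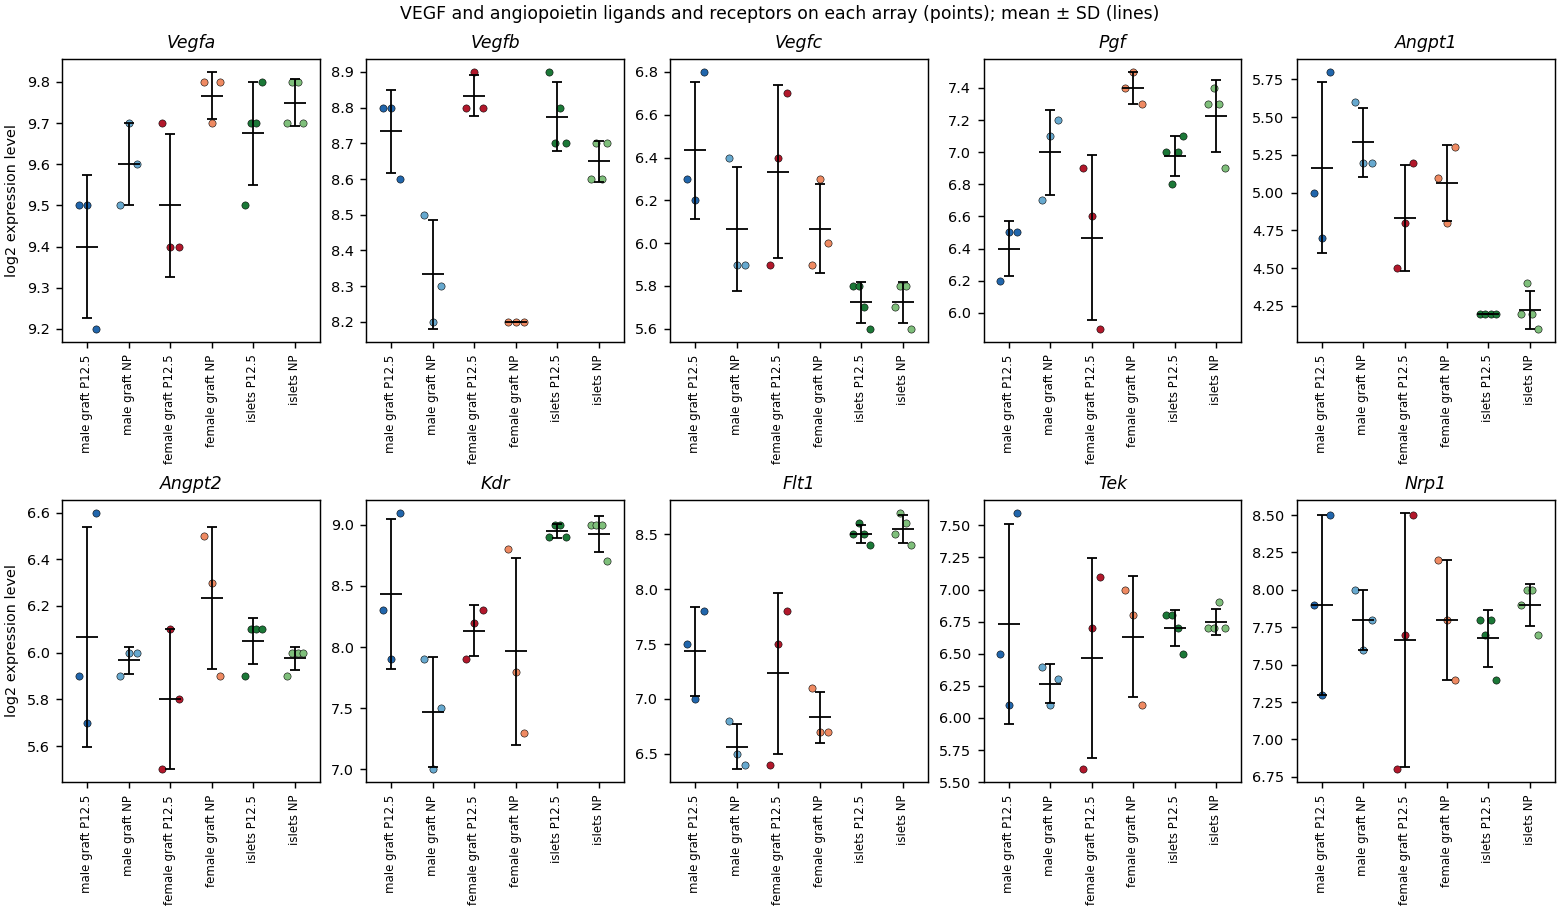
Log2 expression level (y axis, a separate range for each gene) of the 10 genes on each of 20 arrays, by group on the x axis. Points are arrays and black lines are the group mean ± SD. Flt1 reached at most 7.8 in the grafts and at least 8.4 in the islets, and Angpt1 was at least 4.5 in the grafts and at most 4.4 in the islets.

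Flt1 was lower in all 12 grafts than in all 8 islet arrays. In NP mice its level was 7.1, 6.7 and 6.7 in the female grafts, against 8.5, 8.7, 8.6 and 8.4 in the islets. The highest graft lay more than 1 log2 unit below the lowest islet array. Flt1 fell by 1.72 (SE 0.24, 3.29-fold lower, adjusted p = 0.000145). In P12.5 mice its level was 6.4, 7.5 and 7.8 in the female grafts, against 8.5, 8.6, 8.5 and 8.4 in the islets. The grafts varied much more than the islets but did not overlap with them, and Flt1 fell by 1.27 (SE 0.24, adjusted p = 0.00436). Leaving out any 1 of the 7 arrays compared kept the call in both states (-1.85 to -1.65 in NP mice and -1.55 to -0.85 in P12.5 mice). Male grafts gave -1.98 in NP mice and -1.07 in P12.5 mice against the same islet arrays, a setting added after seeing the data.

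Kdr, the main signalling receptor for VEGF-A, was also lower in grafts, but its grafts were uneven. In NP mice its level was 8.8, 7.8 and 7.3 in the female grafts, against 9.0, 9.0, 9.0 and 8.7 in the islets. Graft array 1 lay within the range of the islets. Kdr fell by 0.96 (SE 0.29, adjusted p = 0.0222), and the call was lost without graft array 2 (-0.88) or graft array 3 (-0.62) and with the mean of the kidney tubule genes as a covariate (-1.20, adjusted p = 0.377). In P12.5 mice its level was 7.9, 8.2 and 8.3 in the female grafts, all below the 8.9, 9.0, 9.0 and 8.9 of the islets. That difference was not called (-0.82 ± 0.29, adjusted p = 0.102).

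Tek and the co-receptor Nrp1, which binds VEGF-A and semaphorins, were not called in any comparison. Tek ranged from 5.6 to 7.6 in the 12 grafts and from 6.5 to 6.9 in the 8 islet arrays. In NP mice the difference between female grafts and islets was -0.12 for Tek (95% confidence interval -0.79 to 0.56) and -0.10 for Nrp1 (-0.75 to 0.55). Both intervals reach below the fold minimum on the lower side. Nrp1 ranged from 6.8 to 8.5 in the grafts and from 7.4 to 8.0 in the islets. For both genes female P12.5 graft array 1 gave the lowest value of all 20 arrays.

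**Figure D2:**
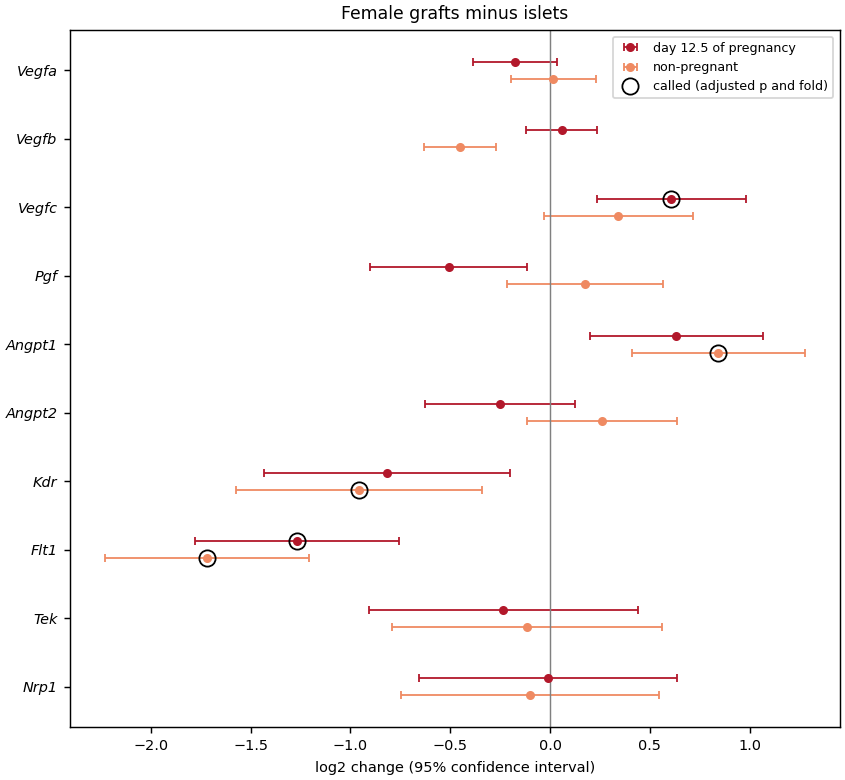
Mean log2 change of female grafts minus islets (x axis) for the 10 genes (y axis), in P12.5 mice and in NP mice. Points are limma estimates, bars are 95% confidence intervals and open circles mark called genes. Flt1 lies at -1.27 and -1.72, and Tek and Nrp1 lie close to 0 with wide intervals.

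Of these receptors, Kdr, Flt1 and Tek are made mainly by endothelial cells. Fewer endothelial cells and less RNA of a gene per endothelial cell cannot be told apart in whole islets. For Nrp1 the share from other cells was not tested. The mean level of 22 other endothelial genes was 6.05 to 7.27 in the 12 grafts and 6.81 to 6.99 in the 8 islet arrays. In NP mice 10 of the 22 were called lower in female grafts and 0 higher, against 11.0% of all probe sets in both directions together. The median change was -0.57, against -0.075 over all genes. In P12.5 mice 2 of the 22 were called lower and 0 higher, against 4.05% of all probe sets (median -0.28, against -0.067 over all genes). The 22 changes ran from -1.58 to 0.47 in NP mice and from -1.21 to 0.39 in P12.5 mice, with 19 negative in each. Plvap, a component of the fenestrae of islet capillaries, was the lowest in both states and fell by 1.58 in NP mice and by 1.21 in P12.5 mice. The general endothelial gene Cdh5 had values of -0.042 and -0.11 and was not called, while Emcn, Esam, Egfl7 and Robo4 were among those called lower in NP mice.

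The receptors differed in how they stood relative to these endothelial genes. The level of Flt1 minus the endothelial mean of the same array was 0.214 to 0.868 in the 12 grafts and 1.52 to 1.73 in the 8 islet arrays, with no overlap. The same difference for Kdr was 0.736 to 1.94 in the grafts and 1.82 to 2.123 in the islets, and that for Tek was -0.468 to 0.382 in the grafts and -0.314 to -0.0909 in the islets. For Nrp1 it was 0.732 to 1.61 in the grafts and 0.586 to 1.03 in the islets. A fall beyond that of the endothelial mean was not particular to Flt1. The mean change of the 22 genes was -0.49 in NP mice and -0.32 in P12.5 mice. Plvap, which is among them, fell by 1.58 and 1.21, where Flt1 fell by 1.72 and 1.27. With the endothelial mean as a covariate in NP mice, Flt1 remained lower in female grafts (-1.20, adjusted p = 1.56e-05) and Kdr was not called (-0.36, adjusted p = 0.172). Under that covariate Tek turned to 0.61 and was called (adjusted p = 0.0039). In P12.5 mice Flt1 was also called with the covariate (-0.93, adjusted p = 0.000102). With the kidney tubule mean as a covariate, which separates grafts from islets on every array, Flt1 kept its size but not its call (-1.77, adjusted p = 0.136 in NP mice, and -1.30, adjusted p = 0.0508 in P12.5 mice).

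Within the 12 grafts the receptors moved with the endothelial mean, as a description across arrays that share tissue content (Pearson's r = 0.91 for Tek, 0.90 for Flt1, 0.88 for Kdr and 0.84 for Nrp1). This was not particular to endothelial genes. With the fibroblast mean r was 0.82 for Tek, 0.55 for Flt1, 0.53 for Kdr and 0.81 for Nrp1. With the endocrine mean it was -0.78, -0.61, -0.66 and -0.81 in that order. Female P12.5 graft array 1 had a low endothelial mean (6.07) and male P12.5 graft array 3 had the highest (7.27).

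**Figure D3:**
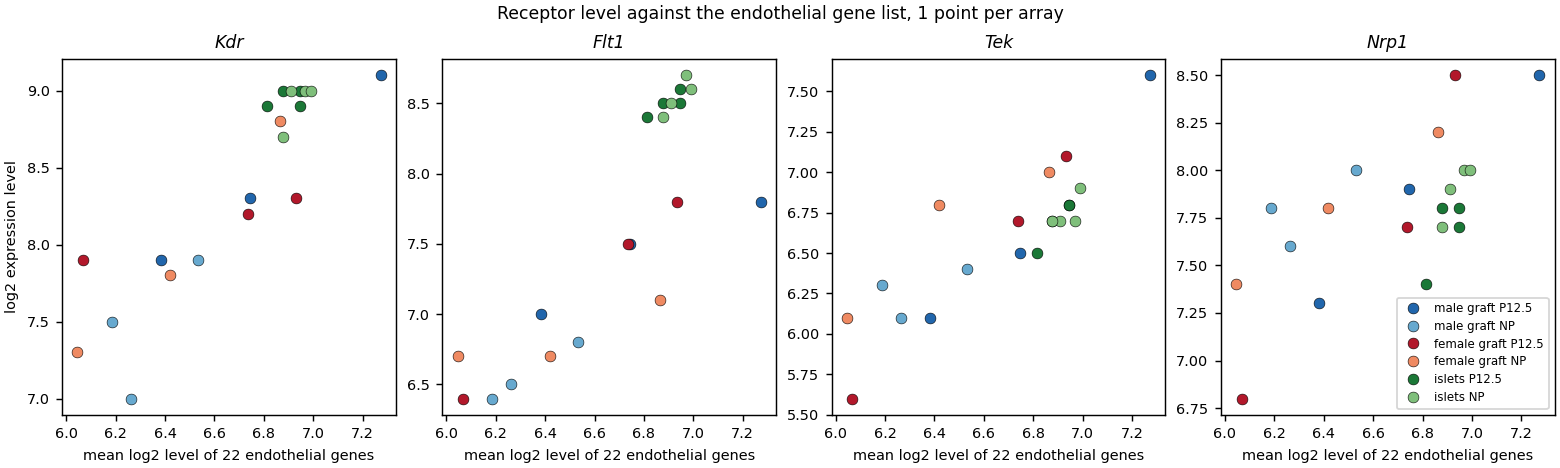
Log2 level of each receptor (y axis) against the mean log2 level of 22 endothelial genes (x axis), 1 point per array, with the 6 groups in different colours. In the Flt1 panel the 8 islet arrays (8.4 to 8.7) stand above the grafts (6.4 to 7.8), including grafts with a similar endothelial mean.

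Promoter sequences are shown for 3 receptors, because Flt1 and Kdr were called lower in grafts and Tek was not, and because endothelial genes are known to use transcription factors of the ETS family, whose core site is GGAA. Each sequence is the 250 bases before the start used by the RefSeq promoter table, on the gene's own strand (GRCm38.p6). In the RefSeq gene table these windows do not lie outside the gene, since those of Flt1 and Kdr fall within its full span and that of Tek crosses its outermost start. Capitals mark GGAA on either strand, which reads as TTCC where it lies on the other strand. The first is the Flt1 window at chr5:147726012-147726261 on the minus strand, the second the Kdr window at chr5:75978456-75978705 on the minus strand and the third the Tek window at chr4:94739039-94739288 on the plus strand.
Flt1: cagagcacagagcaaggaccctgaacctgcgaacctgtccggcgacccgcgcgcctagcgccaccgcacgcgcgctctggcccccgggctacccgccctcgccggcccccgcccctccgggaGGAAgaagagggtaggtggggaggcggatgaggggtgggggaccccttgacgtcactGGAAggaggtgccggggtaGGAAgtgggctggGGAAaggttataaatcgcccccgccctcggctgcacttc
Kdr: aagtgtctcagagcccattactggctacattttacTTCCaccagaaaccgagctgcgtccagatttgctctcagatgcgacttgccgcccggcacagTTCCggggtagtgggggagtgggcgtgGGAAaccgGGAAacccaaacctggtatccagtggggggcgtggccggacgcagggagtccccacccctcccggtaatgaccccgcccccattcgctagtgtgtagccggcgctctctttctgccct
Tek: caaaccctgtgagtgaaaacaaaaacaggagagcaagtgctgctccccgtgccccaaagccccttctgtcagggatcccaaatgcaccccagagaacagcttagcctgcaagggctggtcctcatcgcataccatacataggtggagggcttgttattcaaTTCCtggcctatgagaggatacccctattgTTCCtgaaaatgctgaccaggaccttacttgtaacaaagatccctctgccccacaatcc
The Flt1 and Kdr windows held 4 matches each and the Tek window held 2. GGAA occurred in 93.4% of 32851 promoter windows of this length, with a median of 3 matches, so these counts are near the usual number. Of the 10 genes, 8 had a promoter in the table, with 10 windows in all, and 8 of those windows held GGAA. The core of the hypoxia response element, ACGTG on either strand, was found in 1 of the 10 windows, against 16.6% of all windows. It was the second window of Vegfa (chr17:46025164-46025413), which lies within the full span of that gene. The first window of Vegfa held 0. Only 250 bases before each start were searched, so sites elsewhere in or near the gene were not covered. The STAT5 motif TTCNNNGAA, which can overlap GGAA, was found in 0 of the 10, against 7.02%.

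Vegfb, which encodes a ligand of the Flt1 receptor, was the only ligand called for pregnancy in female grafts. Its level was 8.8, 8.9 and 8.8 in female P12.5 grafts, against 8.2 in each of the 3 female NP grafts. The groups did not overlap, and Vegfb rose by 0.63 ± 0.11 (1.55-fold, adjusted p = 0.0201). In male grafts its level was 8.8, 8.8 and 8.6 at P12.5, against 8.5, 8.2 and 8.3 in NP hosts. These groups did not overlap either, but the difference was not called (0.40 ± 0.11, adjusted p = 0.0915). Over both donor sexes the change was 0.52 ± 0.07 (adjusted p = 0.00343), which is 1.43-fold and short of the fold minimum. The size in female grafts hardly moved when any 1 of the 6 arrays was left out (0.60 to 0.65), yet the call was lost in all 6 cases. Kidney tubule genes also differed between the female groups, with means of 5.83 to 7.35 in P12.5 grafts and 8.03 to 8.92 in NP grafts. With that mean as a covariate the change in Vegfb was 0.52 and was not called (adjusted p = 0.248).

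In islets left in the pancreas Vegfb was 8.9, 8.7, 8.8 and 8.7 at P12.5, against 8.6, 8.7, 8.6 and 8.7 in NP mice. The groups overlapped and the difference was 0.12 (adjusted p = 0.569, 95% confidence interval -0.039 to 0.289). The test of whether the change in female grafts differed from that in islets gave 0.51 ± 0.12 (adjusted p = 0.111). In that test 0 of the 10 genes were called, against 0.0507% of all probe sets. An unadjusted p under 0.05 was found for 2 of the 10, and for 5005 of all 35511 probe sets. NP grafts had the lowest Vegfb of the series. Female NP grafts lay below all NP islets (-0.45 ± 0.09, adjusted p = 0.00114), a difference under the fold minimum.

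Pgf, which encodes placental growth factor, a ligand of the Flt1 receptor, went the other way. Its level was 6.9, 6.6 and 5.9 in female P12.5 grafts, against 7.4, 7.5 and 7.3 in female NP grafts. In male grafts it was 6.2, 6.5 and 6.5 at P12.5, against 6.7, 7.1 and 7.2 in NP hosts. Neither pair of groups overlapped. Pgf fell by 0.77 over both donor sexes (SE 0.16, 1.70-fold lower, adjusted p = 0.0142), and that call was kept without any 1 of the 12 arrays (-0.88 to -0.62) and with the kidney tubule covariate (-0.76, adjusted p = 0.0481). Within each donor sex it was not called (-0.93 ± 0.22, adjusted p = 0.058 in female grafts, and -0.60 ± 0.22, adjusted p = 0.18 in male grafts). In islets Pgf was 7.0, 6.8, 7.0 and 7.1 at P12.5, against 7.3, 7.4, 7.3 and 6.9 in NP mice. NP islet array 4 lay within the P12.5 range, and the difference was -0.25 ± 0.12 (adjusted p = 0.454). Female grafts and islets overlapped in Pgf in both states, with differences of 0.18 in NP mice (adjusted p = 0.502) and -0.51 in P12.5 mice (adjusted p = 0.108), and at P12.5 the difference was called without graft array 1 (-0.72). The change in female grafts minus that in islets was -0.68 ± 0.26 (adjusted p = 0.264).

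Vegfa, the main endothelial growth factor of islets, was nearly level across all groups. It ranged from 9.2 to 9.8 in the 12 grafts and from 9.5 to 9.8 in the 8 islet arrays. All 6 group means lay between 9.4 in male P12.5 grafts and 9.77 in female NP grafts, and neighbours in that order overlapped throughout. Over both donor sexes P12.5 grafts were 0.23 ± 0.09 lower than NP grafts (adjusted p = 0.0942).

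Vegfc, which acts mainly on lymphatic endothelium, was higher in all 12 grafts than in all 8 islet arrays. In P12.5 mice its level was 5.9, 6.4 and 6.7 in female grafts, against 5.8, 5.8, 5.7 and 5.6 in islets. Graft array 1 lay only 0.1 above the highest islet array. Vegfc rose by 0.61 ± 0.18 (adjusted p = 0.0469), close to both thresholds, and the call was lost in 6 of the 7 removals of 1 array (0.42 to 0.82 over all 7) and held only without graft array 1. In NP mice its level was 5.9, 6.3 and 6.0 in female grafts, against 5.7, 5.8, 5.8 and 5.6 in islets (0.34 ± 0.18, adjusted p = 0.157). With the endothelial mean as a covariate that difference was 0.63 and was called (adjusted p = 0.00711), and with the kidney tubule mean it was 0.60 and was not (adjusted p = 0.453). Male grafts gave 0.71 in P12.5 mice, which was called (adjusted p = 0.013), and 0.34 in NP mice, which was not. The mean of 4 lymphatic genes was 6.55 to 8.70 in the 12 grafts and 6.08 to 6.38 in the 8 islet arrays, but its members were uneven. In female grafts 3 of the 4 were higher than in islets and 1, Prox1, was lower (-0.34 in NP and -0.31 in P12.5 mice). Only Pdpn was called (2.00 and 2.23). Mmrn1 ranged from 3.6 to 8.7 in the grafts. Across the 12 grafts r of Vegfc was 0.79 with the fibroblast mean, 0.77 with the endothelial mean and -0.75 with the endocrine mean. The part of these tissues in the result was not tested.

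Angpt1, the activating ligand of the Tek receptor, was above the islet level in every graft. In NP mice its level was 5.1, 4.8 and 5.3 in female grafts, against 4.2, 4.4, 4.2 and 4.1 in islets. The islet values lay below the lower quartile of the arrays, where changes are compressed, so the size is not exact. Angpt1 rose by 0.84 ± 0.21 (adjusted p = 0.00647), and the call was kept in all 7 removals of 1 array (0.72 to 0.98). In P12.5 mice its level was 4.5, 4.8 and 5.2 in female grafts, against 4.2 in each of the 4 islet arrays. The groups did not overlap but the difference was not called (0.63 ± 0.21, adjusted p = 0.073). It was called without graft array 1 (0.80), which held the lowest value, and in male grafts (0.97, adjusted p = 0.00494). With the kidney tubule covariate the NP call was lost (0.70, adjusted p = 0.462). Across the 12 grafts r was 0.60 with the fibroblast mean, 0.44 with the endothelial mean and -0.74 with the endocrine mean.

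Angpt2, the ligand that can oppose Angpt1, was not called in any comparison. It ranged from 5.5 to 6.6 in the grafts and from 5.9 to 6.1 in the islets. In NP mice female grafts differed from islets by 0.26 (95% confidence interval -0.12 to 0.63). In male grafts against the same islets the value was -0.0083. With the endothelial mean as a covariate the female value was 0.59 and was called (adjusted p = 0.00481).

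**Figure D4:**
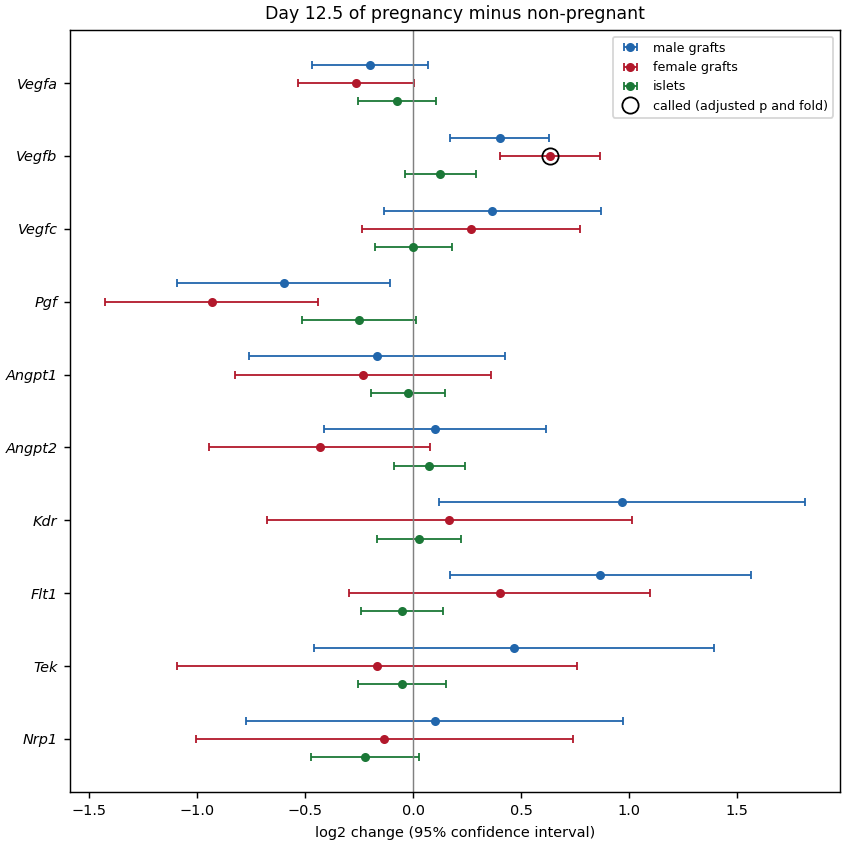
Mean log2 change of P12.5 minus NP (x axis) for the 10 genes (y axis) in male grafts, female grafts and islets. Points are limma estimates, bars are 95% confidence intervals and the open circle marks the called gene. Vegfb lies above 0 and Pgf below 0 in grafts of both donor sexes, with 0.63 and -0.93 in female grafts, while all islet changes lie between -0.25 and 0.12.

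For the receptors, pregnancy gave no called change. Flt1 was 7.5, 7.0 and 7.8 in male P12.5 grafts, against 6.8, 6.5 and 6.4 in male NP grafts. The groups did not overlap, but the difference was not called (0.87 ± 0.32, adjusted p = 0.176). Kdr was 8.3, 7.9 and 9.1 in male P12.5 grafts, against 7.9, 7.0 and 7.5 in male NP grafts (0.97 ± 0.39, adjusted p = 0.203). The endothelial mean was 6.38 to 7.27 in those P12.5 grafts and 6.19 to 6.53 in those NP grafts, and with it as a covariate the changes were 0.37 for Flt1 and 0.39 for Kdr. In female grafts the changes were 0.40 for Flt1 and 0.17 for Kdr, both with overlapping groups. Over both donor sexes Flt1 gave 0.63 ± 0.22 (adjusted p = 0.0829), which, among the removals of 1 array, was called only without female P12.5 graft array 1 (0.84). In islets all 4 receptors changed by -0.22 to 0.025.

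Donor sex made no called difference for any of the 10 genes. In NP hosts male minus female grafts ranged from -0.50 for Kdr to 0.27 for Angpt1, with 0 of 10 called, against 0.0141% of all probe sets. An unadjusted p under 0.05 was found for 0 of the 10, and for 1777 of all 35511 probe sets. Pgf was 6.7, 7.1 and 7.2 in male NP grafts and 7.4, 7.5 and 7.3 in female NP grafts (-0.40, 95% confidence interval -0.89 to 0.093). These values did not overlap, but the share of all genes without overlap was not counted, so this is not read as a difference. In P12.5 hosts the differences ranged from -0.10 to 0.33, with 0 of 10 called, against 0.0113% of all probe sets. An unadjusted p under 0.05 was found for 0 of the 10, and for 1270 of all 35511 probe sets. The interaction of donor sex with pregnancy ranged from -0.23 for Vegfb to 0.80 for Kdr, with 0 of 10 called, against 0% of all probe sets. An unadjusted p under 0.05 was found for 0 of the 10, and for 1772 of all 35511 probe sets. With 3 grafts per group these intervals were wide. For Kdr the interaction ran from -0.40 to 2.00.

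Other genes of the same system were followed as a list of 31 measured genes, further ligands, receptors, co-receptors, inhibitors and downstream genes. In NP mice 6 of the 31 were called higher and 7 lower in female grafts than in islets, against 11.0% of all probe sets in both directions together. The median change was -0.075, the same as over all genes. In P12.5 mice 7 were called higher and 2 lower, against 4.05% of all probe sets (median 0.075, against -0.067 over all genes). For pregnancy 0 of the 31 were called by limma in islets, in grafts of female or of male donors or over both donor sexes. Of all probe sets 0.724%, 1.70%, 0.932% and 3.96% were called, in that order. An unadjusted p under 0.05 was found for 4, 5, 7 and 9 of the 31. Over all 35511 probe sets the numbers were 4208, 7529, 6926 and 10967.

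The ligand Vegfd, which acts on the lymphatic receptor encoded by Flt4, differed most. Its level was 8.5, 9.2 and 8.4 in female NP grafts, against 5.3, 5.3, 5.3 and 5.4 in NP islets. The change was 3.38 ± 0.40 in NP mice (10.4-fold, adjusted p = 3.98e-05) and 3.59 in P12.5 mice. The fibroblast genes were also higher in all grafts, and their part in this and the other increases was not tested. Semaphorins are ligands that use neuropilins, plexins or both. Of 5 on the list, 3 were called higher in grafts in NP mice and 2 in P12.5 mice. Changes in NP and P12.5 mice were 1.63 and 1.70 for Sema3c and 1.16 and 1.52 for Sema3d. Sema3a was called in NP mice (0.86) and not in P12.5 mice (0.87, adjusted p = 0.0501). In islets Sema3a (4.4 to 4.9) and Sema3d (4.4 to 4.6) lay at or below the lower quartile of the arrays, so their sizes are not exact. Sema3e (0.31 in NP mice, with equal means of 6.1 in both P12.5 groups) and Sema3f (-0.33 and 0.15) were not called. The plexin Plxna1 was called in P12.5 mice (0.76). Thbs1, an inhibitor of vessel growth, rose by 1.5 and 1.88 in NP and P12.5 mice. Col18a1, the source of the inhibitor endostatin, was called in P12.5 mice (0.73), and Dab2, an endocytic adaptor, rose by 2.64 and 2.32.

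Among the genes called lower, Esm1, an endothelial gene that VEGF-A can induce, stood furthest apart. Its level was 6.1, 6.3 and 5.7 in female NP grafts, against 8.4, 8.6, 8.5 and 8.3 in NP islets. Esm1 fell by 2.42 in NP mice (SE 0.26, 5.34-fold lower, adjusted p = 1.68e-05) and fell by 2.14 in P12.5 mice. The Notch target Hey2 fell by 0.78 in NP mice and by 0.59 in P12.5 mice, with graft levels of 4.4 to 5.1 close to that quartile. Tie1, the partner receptor of Tek, fell by 0.78 in NP mice, and Ptprb, a phosphatase that restrains the Tek receptor, fell by 0.87. Neither was called in P12.5 mice (-0.63 and -0.38).

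**Figure D5:**
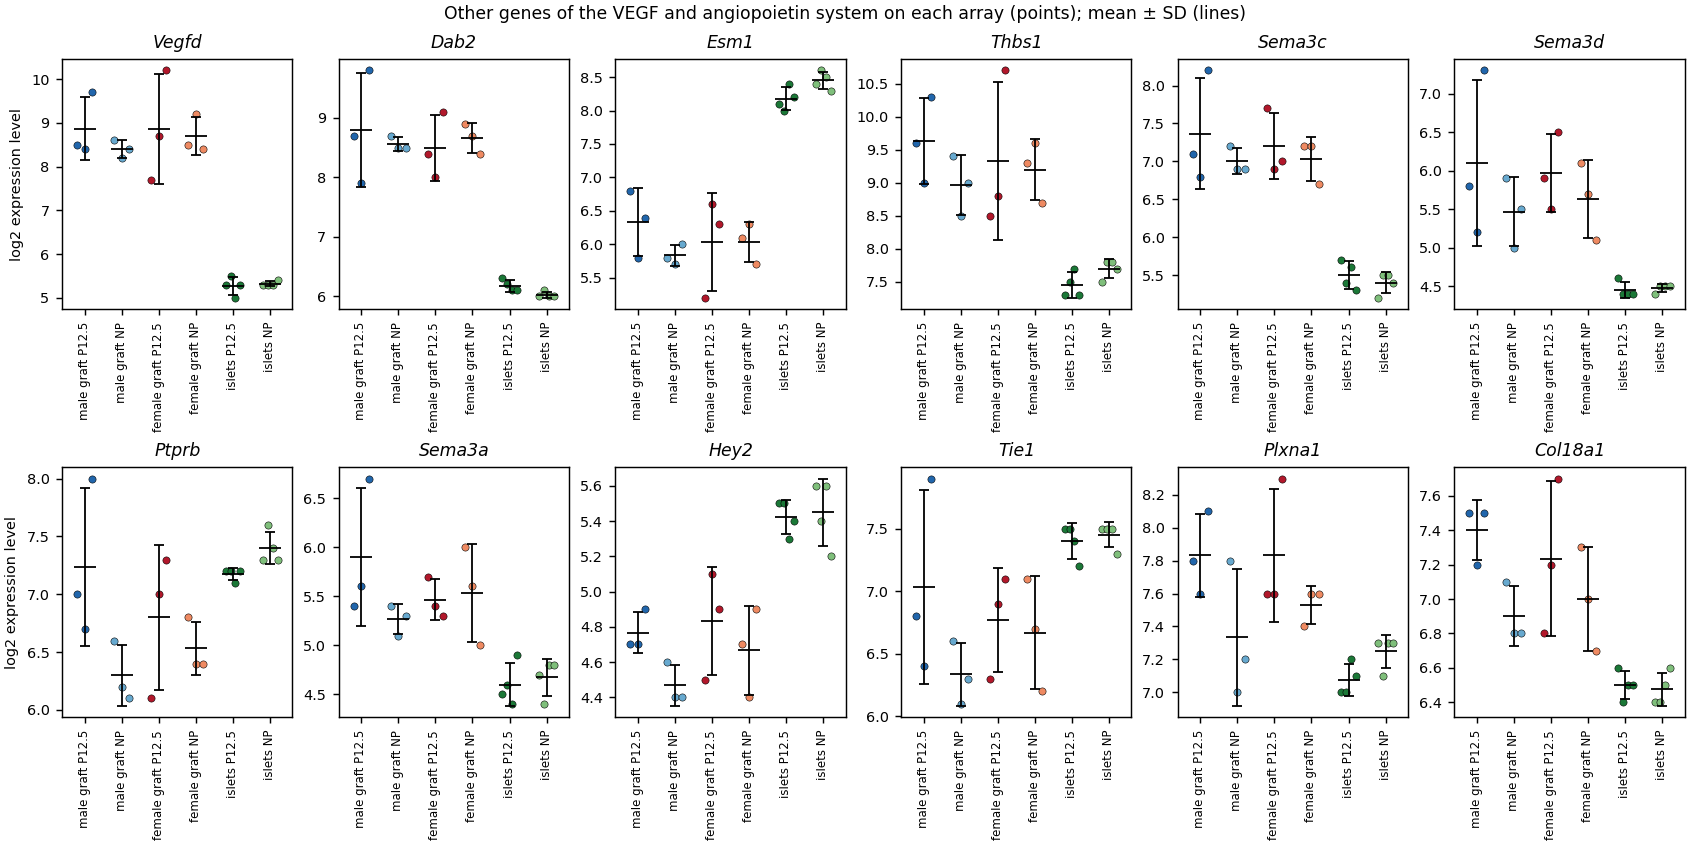
Log2 expression level (y axis, a separate range for each gene) of 12 further genes of the VEGF and angiopoietin system on each of 20 arrays, by group on the x axis. Points are arrays and black lines are the group mean ± SD. Vegfd was 7.7 to 10.2 in the grafts and 5.0 to 5.5 in the islets, and Esm1 was 5.2 to 6.8 in the grafts and 8.0 to 8.6 in the islets.

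Genes known to be induced by low oxygen, among which Vegfa is a textbook member, were set beside it as a list of 18. In NP mice 5 of the 18 were called higher in female grafts than in islets and 0 lower, against 11.0% of all probe sets in both directions together. The median was 0.19, against -0.075 over all genes, with Ldha at 0.94 and Adm at 1.36. The 18 changes ran from -0.325 to 1.36, and 5 of them were negative. In P12.5 mice 3 were called higher and 0 lower, against 4.05% of all probe sets (median 0.10). There the changes ran from -0.54 to 1.38, with 8 of the 18 negative. Vegfa had values of 0.017 in NP mice and -0.18 in P12.5 mice. In grafts of P12.5 hosts 1 of the 18 was called lower, Ddit4, which restrains growth signalling, at 6.5, 6.5 and 6.6 in female grafts, against 7.3, 7.9 and 7.5 in female NP grafts. It fell by 1.03 in female grafts (adjusted p = 0.011) and by 1.30 in male grafts (adjusted p = 0.00356). Of all probe sets 1.70% and 0.932% were called in those comparisons. Ddit4 was also lower in P12.5 islets left in the pancreas, at 7.0, 6.7, 6.9 and 6.5, against 7.2, 7.3, 7.5 and 7.1 in NP islets. That change of -0.50 was not called. In islets 0 of the 18 were called for pregnancy, against 0.724% of all probe sets.

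The genes whose levels ran most like each member across the 12 grafts were taken among 3442 genes that varied by at least 1 log2 unit there. These values describe arrays that share tissue content and pregnancy state. For Flt1 they were Emcn (r = 0.98), Ptprb (0.94) and Robo4 (0.93), all endothelial genes, and over the 8 islet arrays r was 0.87, 0.64 and 0.73. For Tek they were Jag1 (0.97), Igfbp3 (0.97) and Abi3bp (0.95), with islet r of -0.14, 0.25 and -0.16. For Kdr they were Podn (0.94), Pdzd2 (0.94) and Tgfb3 (0.93), and for Nrp1 they were Cmtm3 (0.97), Calcrl (0.96) and Trim30a (0.94). Among the 50 most alike genes, 8 of the 22 endothelial genes stood for Flt1, 8 for Tek, 3 for Kdr and 3 for Nrp1. Among the ligands 0 stood for Vegfa, Vegfb, Vegfc, Pgf or Angpt1, and 3 for Angpt2.

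For Vegfb the most alike genes were Sntg2 (0.96), Mrps12 (0.96) and Lrrc55 (0.96), with islet r of 0.81, 0.76 and 0.64. For Pgf they were Prxl2a (0.96), Ppp4r2 (0.95) and Stx17 (0.94). For Vegfc they were Fbn2 (0.97), Itga9 (0.95) and Cercam (0.94), and for Vegfa they were Spock2 (0.94), Six4 (0.92) and Faah (0.91). For Angpt1 they were Cyria (0.92), Prkd3 (0.90) and Cybb (0.89), and for Angpt2 they were Ndrg2 (0.92), Cyp2j9 (0.89) and Abca8a (0.84). Across the 12 grafts Vegfb and Pgf ran against each other (r = -0.84, and -0.47 over the 8 islet arrays). The grafts mix NP and P12.5 hosts, between which both genes differed. That r therefore includes the pregnancy changes given above, and a value within 1 state was not computed.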

How the data were processed

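Total RNA of the 20 samples was hybridised to Affymetrix MoGene 1.0 ST arrays. The authors deposited log2 expression values per probe set, obtained by robust multichip analysis with background adjustment, quantile normalization and probe set summary. The deposited values are rounded to 1 decimal. For the array annotation, a genome build is not given in the sources used here. The table held 35511 probe sets, of which 21789 carried 1 gene symbol, and the brightest of these (mean over all arrays) stood for each gene.

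Groups were taken from the sample titles. Group differences were fitted with limma 3.58.1 under R 4.3.3 (lmFit, then eBayes, two-sided, Benjamini-Hochberg adjustment over all probe sets), on 8 islet arrays, 12 graft arrays or all 20 arrays for grafts against islets. A call needed an adjusted p under 0.05 and a fold change of at least 1.5, as in the study's methods. The fit was tested on simulated data. Precision is limited by the number of arrays.

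The 10 genes and all gene lists were chosen with earlier results of these data known. All 10 are described, with up to 12 further genes of the same system that were called and changed most, and the 3 genes most alike to each. Promoters came from RefSeq on GRCm38.p6. Of the lists reported here, the entries Vash1, Ins1, Ccl21a and Pnlip were not analysed here.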

Additional observations from a re-analysis of the deposited data

Results flagged for a closer look

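In the 2 islet groups, the only groups of 4 arrays, 20 sets of values of the 10 genes were examined for 1 array far from the others, and 4 were found. Grafts, with 3 arrays per group, were not examined. Chance marks about 1 in 20 such sets, and with values rounded to 1 decimal a step of 0.1 can be enough. Angpt2 was 5.9 in P12.5 islet array 1, with 6.1 in the other 3 arrays of that group. Angpt2 was also 5.9 in NP islet array 1, with 6.0 in the other 3. Kdr was 8.7 in NP islet array 4, with 9.0 in the other 3. Tek was 6.9 in NP islet array 3, with 6.7 in the other 3.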

How the results depend on the processing

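Of 100 gene and comparison pairs, 24 had an unadjusted p under 0.05 or were called under some setting and were followed through the settings. The other 76 had changes of at most 0.80, and 33 of them changed sign somewhere. The dim filter kept probe sets whose highest group mean was at least 6. It removed Angpt1, whose highest group mean was 5.33, so that setting gives no value for this gene. The direction turned for Tek in NP female grafts against islets (0.61 with the endothelial covariate, and -0.30 to 0.15 when 1 array was left out, the positive value without female graft NP array 3) and for Angpt2 in the same comparison (-0.0083 with male grafts in place of female grafts). Calls of single genes that were lost are given with each gene; those of Vegfc at P12.5 were also lost with medians subtracted, with only the arrays compared, with the replicate block and with the kidney covariate.

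Members called in female grafts numbered 2 with dim probe sets filtered or all 20 arrays in 1 fit (1 in the main result), and 0 with the kidney tubule covariate. Over all grafts 2 were called with all 20 arrays in 1 fit. In female grafts against islets, 5 were called in NP mice and 4 in P12.5 mice with the endothelial covariate, and 0 in both with the kidney covariate. At P12.5 only 1 was called with medians subtracted or with the block.

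Replicate numbers did not pair the samples (r of deviations -0.242 to 0.226). With the replicate block, called probe sets numbered 132 in islets, 266 and 124 in grafts of female and of male donors and 1 for the donor sex interaction. With all 20 arrays in 1 fit they numbered 1720 in female grafts, 1059 in male grafts, 15 between male and female NP grafts and 49 between male and female P12.5 grafts. With the kidney covariate they numbered 6 in female grafts, 731 over all grafts, 92 for NP grafts against islets, 573 for P12.5 grafts against islets and 0 for the transplantation interaction. Subtracted medians gave 542 in male grafts and 10 for that interaction, which had 32 after repeated quantile normalization, 42 after the dim filter, 231 with only the arrays compared and 30 with trend and robust. P12.5 grafts against islets had 2231 with the endothelial covariate, 2263 with both donor sexes and 2578 with male grafts. The main counts were 257 in islets, 602 and 331 in grafts of female and of male donors, 1408 over all grafts, 5 and 4 for donor sex in NP and P12.5 hosts, 0 for its interaction, 3911 and 1438 for grafts against islets in NP and P12.5 mice and 18 for the transplantation interaction.

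Leaving out 1 array gave 184 to 299 calls in islets, 48 to 260 and 46 to 479 in grafts of female and of male donors, 947 to 1724 over all grafts, 4 to 25 and 4 to 5 between donor sexes in NP and P12.5 hosts, 3381 to 4143 and 771 to 1417 for NP and P12.5 grafts against islets, and 1 to 15 for the transplantation interaction. Members called then numbered 0 in female grafts, 1 to 2 over all grafts, and 2 to 3 in NP and 1 to 4 in P12.5 grafts against islets. The cause of these shifts was not tested. A second probe set could not be tried, since each gene had 1.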
